A study of Mus musculus with 11 samples.

Results

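COPI is the protein coat of the vesicles that bud from the Golgi and return cargo to the endoplasmic reticulum (ER). The genes described here are 8 subunits of that coat (Copa, Copb1, Copb2, Copg1, Copg2, Cope, Copz1 and Arcn1), the small GTPase Arf4 and the GTPase-activating protein Arfgap3. They were picked by gene symbol, without a threshold on measured values but with earlier results of these data known, and all 10 were present among the 18667 genes with deposited values and were above the expression minimum. Coat assembly starts when a guanine nucleotide exchange factor loads an ARF GTPase with GTP on the Golgi membrane, and the membrane-bound ARF then recruits the preformed coat complex. Hydrolysis of the GTP, stimulated by ARF GTPase-activating proteins, releases the coat again. In the cochlea, proteins such as cochlin from spiral ligament fibrocytes and the tectorins from supporting cells are secreted through the ER and Golgi, between which COPI carries the return traffic.

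RNA was sequenced from whole cochleae of 2-month-old mice on a pure C57BL/6J background, 5 libraries from Atf6+/+ mice and 6 from Atf6-/- littermates, with 1 cochlea per library. ATF6 is an ER membrane protein that, under ER stress, travels to the Golgi, is cut there and enters the nucleus as a transcription factor for ER chaperones. The Atf6-/- mice have an early stop codon in Atf6 and, according to the study, make no ATF6 protein. They carry this change in every cell from conception, so a late effect of the loss cannot be told apart from an early one. Mice of the C57BL/6J strain lose hearing with age even with Atf6 intact. Mice of either sex were used and the labels do not give the sex of each library, nor whether any libraries share an animal, so p-values measure the spread between these libraries.

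Values are FPKM, a count of sequenced fragments divided by transcript length and library size, and the tables give no read numbers. Atf6 itself was 9.52 ± 1.11 FPKM (SD, n = 5) in Atf6+/+ and 4.26 ± 0.285 (SD, n = 6) in Atf6-/-, which is -1.13 on the log2 scale (adjusted p = 5.17e-05 by limma), and the groups did not overlap. The cochlear markers were present, with summed levels of 3209 to 4873 FPKM for 4 fibrocyte genes and 35.1 to 104 for 6 hair cell genes in Atf6+/+, and of 4123 to 6276 and 61.3 to 138 in Atf6-/-. Bone marrow lies in the bone around the cochlea, and its markers were examined too. Of 20 neutrophil, B cell and erythroid markers, 19 were lower in Atf6-/-, and the 7 erythroid genes summed to 4826 to 46392 FPKM in Atf6+/+ and 2870 to 9374 in Atf6-/-. The neutrophil genes summed to 248 to 3053 and 89.4 to 1189 FPKM, the B cell genes to 31.6 to 53.4 and 30.3 to 39.1, and none of these 20 markers had a mean under 0.1 FPKM. The bone marrow score, the mean of the scores of these 3 lists, was 4.32 to 6.35 in Atf6+/+ and 2.91 to 4.77 in Atf6-/- (exact permutation p = 0.0216), while the 3 lists taken singly had exact permutation p values of 0.113 or more after adjustment over 13 marker lists.

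The promoters are shown first because ATF6 acts on DNA. RefSeq promoters of the GRCm38.p6 build, 250 bases before to 50 after each annotated start, were given for 9 of the 10 genes. Arcn1 had no entry. The promoters were searched on both strands for the ER stress response element (ERSE: CCAAT, any 9 bases, CCACG), its second form ERSE-II (ATTGG, any 1 base, CCACG), the ATF6 and XBP1 site TGACGTGG, the cyclic AMP element TGACGTCA and the composite C/EBP-ATF element TGATGCAA. TGACGTGG and TGACGTCA share TGACGT but are different matches, and the reverse complement of TGACGTGG holds the CCACG that ends the ER stress response element. The 3 matches are printed below within 30 bases, in the direction of the gene and with the matching letters in capitals.
Copb1, chr7:114254690-114254719, minus strand: cccgcccccttCCACGTCAgccaaggactt
Copb2, chr9:98563713-98563742, plus strand: tcccggaagttCCACGTCAgtgggttggcc
Cope, chr8:70302546-70302575, plus strand: gcggaggaatgTGACGTCAcggagagaccc

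The ATF6 and XBP1 site stood in the promoters of both β-type subunits, Copb1 and Copb2. In each it lay on the strand opposite to the gene, at positions -28 to -21 of Copb1 and -7 to 1 of Copb2, where 1 is the first transcribed base and there is no position 0. This motif was in 222 of 32851 promoters (0.676%), and in 0.827% of the 16199 promoters that belong to tested genes. The cyclic AMP element of Cope lay at positions -210 to -203, and 1.79% of all promoters and 2.70% of those of tested genes held that motif. Both motifs hold a CpG, and the matched promoters of Copb1, Copb2 and Cope have 16, 26 and 17 CpGs against a median of 7 over all promoters. The member promoters without a match have 10 (Copa), 19 (Copg1), 19 (Copz1), 25 (Copg2), 33 (Arfgap3) and 35 (Arf4). The part of CpG content in the matches was not tested. None of the 9 promoters held ERSE, which was in 0.119% of all promoters, ERSE-II, which was in 0.0365%, or TGATGCAA, which was in 0.895%. A match is a run of letters in this window, and binding was not measured.

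The measured differences of these RNAs between the genotypes were mostly small. Of the 10 genes, 8 had a higher and 2 a lower mean in Atf6-/-. The median log2 fold change was 0.045 against -0.013 over all 16169 genes tested. For 9 of the 10 the change was under 0.1 on the log2 scale, as for 8878 of all genes tested. The limma interval lay within 0.1 in either direction for only 2 of the 10 (Copb2 and Copg1) and for 68 of all genes. For the other members a change beyond 0.1 was not excluded. Genes were called by the thresholds of the study's rule, a p without adjustment no higher than 0.05 and a fold change beyond 0.05, which was applied here to the log2 fold change in either direction and to limma's p. That rule called 9.85% of all genes tested, 4.48% as higher and 5.37% as lower in Atf6-/-. Of the 10 genes, 1 (Copa) was called higher and 0 were called lower. No member had an adjusted p under 0.05, a level reached by 0.068% of all genes. With each library rescaled to a common sum (TPM), the medians were 0.10 for the 10 genes and 0.043 for all genes, all 10 means were higher in Atf6-/-, and 4 genes (Copa, Arcn1, Arf4 and Arfgap3) were called higher, where the rule then called 8.59% of all genes higher. Since whole cochleae were measured, fewer cells of a type and less RNA per cell cannot be told apart.

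**Figure D1:**
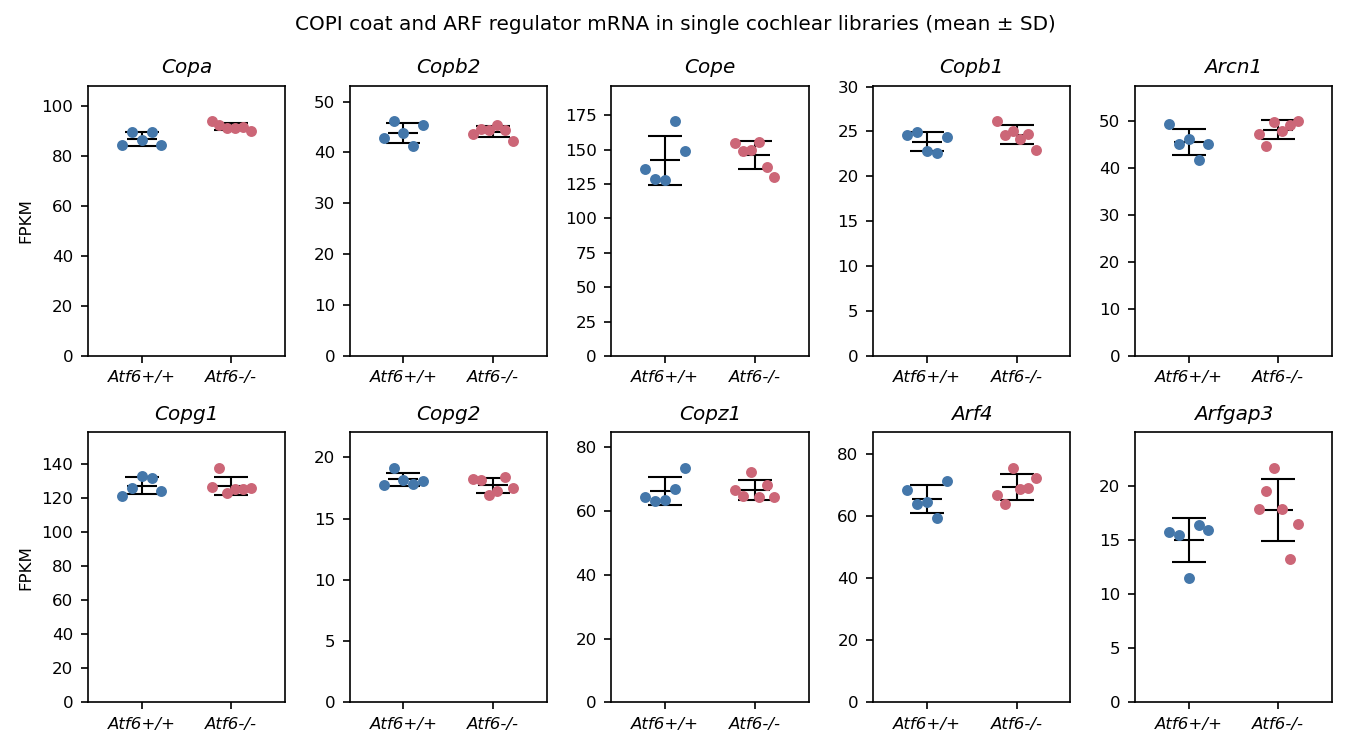
FPKM of the 10 genes, 1 point per library, with bars for the mean and SD of 5 Atf6+/+ (blue) and 6 Atf6-/- (red) libraries, on vertical axes that start at 0. The groups overlap for every gene except Copa, whose 6 Atf6-/- libraries lie between 89.99 and 94.08 FPKM, above all Atf6+/+ libraries.

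The outer layer of the coat is formed by the subunits α (Copa), β′ (Copb2) and ε (Cope). Copa, which recognises the retrieval signal at the tail of ER membrane proteins, was the gene whose groups did not overlap. Its level was 84.35, 89.64, 86.74, 89.80 and 84.40 FPKM in the Atf6+/+ libraries and 94.08, 92.70, 91.53, 91.38, 91.72 and 89.99 FPKM in the Atf6-/- libraries. Every Atf6-/- library was above every Atf6+/+ library, but the lowest of the first (89.99) and the highest of the second (89.80) were close together. The means of 87.0 ± 2.68 FPKM (SD, n = 5) and 91.9 ± 1.38 (SD, n = 6) gave a rise of 5.67% (95% interval 0.303 to 11.3), or 0.080 on the log2 scale (SE 0.035). Copa passed the study's rule (limma p = 0.0398, adjusted p = 0.491), and the exact two-sided permutation test over the 462 assignments of the libraries gave p = 0.00216, the smallest it can give. Non-overlapping groups with the higher values in Atf6-/- were seen for 0.643% of all genes tested, and with the lower values for 0.606%. The rise of Copa was no longer called when the bone marrow score was a covariate (log2 fold change 0.065), with the replicate number as a block (0.086) or with robust variance (0.080). The score itself had a lower mean in Atf6-/-, so its part and that of genotype cannot be told apart. With the score, 324 of all genes were called higher in place of 724. Leaving out 1 library ended the call of Copa in 8 of 11 cases. These were Atf6+/+ replicates 1, 3 and 5 and Atf6-/- replicates 1 to 5, with log2 fold changes of 0.069 to 0.091 over all 11 cases.

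Copa is also the only gene of the set on chromosome 1, where Atf6 lies. In the gene order of GRCm38.p6, 42 tested genes stand between them. Of these, 3 were called higher and 3 lower (14.3%, against 9.85% of all genes tested), with a median log2 fold change of -0.089. Of the next 42 tested genes beyond Copa 7.14% were called, and of the 42 beyond Atf6 4.76%. The part of linkage to Atf6 in the difference of Copa was not tested.

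Copb2, whose promoter holds the ATF6 and XBP1 site, had close means in the genotypes, 43.9 ± 1.98 FPKM (SD, n = 5) in Atf6+/+ and 44.1 ± 1.1 (SD, n = 6) in Atf6-/-. The libraries read 42.79, 46.15, 43.79, 41.28 and 45.47 FPKM in Atf6+/+, and from 42.20 to 45.38 with a median of 44.4 in Atf6-/-, inside the range of the controls. The 95% interval of the change ran from -5.28% to 6.75% (exact permutation p = 0.812). Cope, which stabilises Copa in the complex, was the most abundant and the least even of the coat members across libraries. Its level was 136.13, 128.55, 127.64, 170.78 and 148.77 FPKM in Atf6+/+ and 130.20 to 155.96 with a median of 150 in Atf6-/-. The Atf6+/+ range enclosed the Atf6-/- range, and the interval of the change was wide, from -8.42% to 16.3% (exact permutation p = 0.593). Without Atf6+/+ replicate 4, the library at 170.78 FPKM, the log2 fold change of Cope was 0.11 in place of 0.046, without replicate 2 it was 0.011 and without replicate 3 it was 0.0085, and in none of these was it called.

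The inner layer, which contacts the membrane, ARF and cargo, holds β (Copb1), δ (Arcn1), γ (Copg1 or Copg2) and ζ (Copz1 or Copz2). Arcn1 had the widest shift among these. It was 49.41, 44.98, 46.22, 41.65 and 44.97 FPKM in Atf6+/+ and ranged from 44.75 to 49.92 with a median of 48.6 in Atf6-/-. Of the 6 Atf6-/- libraries 5 were above the Atf6+/+ mean, but only 2 were above the highest control library, Atf6+/+ replicate 1. The change of 5.99% (95% interval -1.45 to 14) did not pass the test (log2 fold change 0.084, exact permutation p = 0.0887). Without Atf6+/+ replicate 1 the log2 fold change was 0.11 and the gene was called, and without Atf6+/+ replicate 4 it was 0.053 and the gene was not.

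Copb1, the other gene with an ATF6 and XBP1 site, was 24.59, 24.95, 22.86, 22.57 and 24.37 FPKM in Atf6+/+ and 22.97 to 26.14 with a median of 24.7 in Atf6-/-. The groups overlapped, with 2 of the 6 Atf6-/- libraries above the highest control, and the interval of the change ran from -3.64% to 10.5% (exact permutation p = 0.240). Neither gene with TGACGTGG in its promoter was called in either direction, but the rule called only 9.85% of all genes tested. An effect of ATF6 through these sites was not tested. Copg1, the γ subunit that makes up most of the γ RNA, was 121.40, 126.26, 133.15, 132.18 and 124.32 FPKM in Atf6+/+ and 123.22 to 138.00 with a median of 126 in Atf6-/-. The means were the same to 3 digits, at 127 ± 5.07 (SD, n = 5) and 127 ± 5.31 FPKM (SD, n = 6), and the interval of the change was -6.34% to 6.68% (exact permutation p = 0.991).

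Copg2, the second γ subunit, was 17.76, 19.15, 18.17, 17.82 and 18.09 FPKM in Atf6+/+ and 16.89 to 18.40 with a median of 17.8 in Atf6-/-. Although 3 Atf6-/- libraries were below the lowest control, the difference was small (interval -8.42% to 3.72%, exact permutation p = 0.232), and its log2 fold change of -0.037 was -0.019 without Atf6+/+ replicate 2 and became 0.019 in TPM, where the all-gene median was 0.043 in place of -0.013. Copz1, the main ζ subunit, was 64.33, 63.07, 63.53, 66.98 and 73.65 FPKM in Atf6+/+ and 64.40 to 72.32 with a median of 65.6 in Atf6-/-. All 6 Atf6-/- libraries lay within the control range (interval -6.63% to 8.64%, exact permutation p = 0.801). Summed over the 8 coat members, the level was 555 ± 18.6 FPKM (SD, n = 5, 541 to 583) in Atf6+/+ and 567 ± 13.4 (SD, n = 6, 543 to 578) in Atf6-/-, and these ranges overlapped over most of their width.

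**Figure D2:**
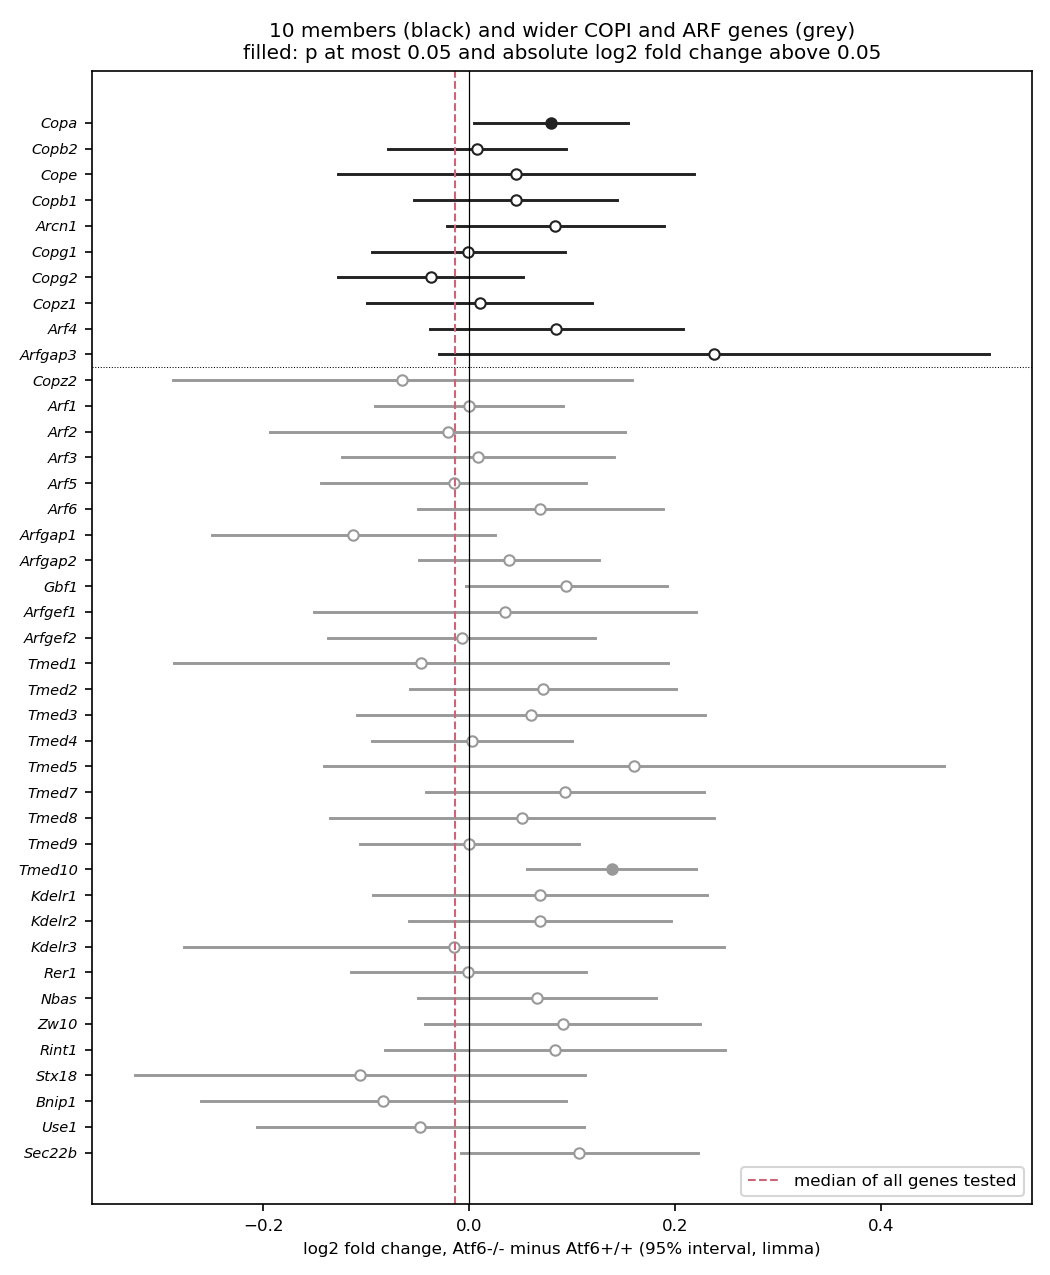
Log2 fold change of Atf6-/- over Atf6+/+ (horizontal axis) with its 95% limma interval for the 10 genes (black, top) and 31 further COPI and ARF genes (grey, below the dotted line). Filled points mark genes called by the study's rule, which are Copa and Tmed10, and the dashed line marks the median of all genes tested at -0.013.

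Arf4 and Arfgap3 act on the ARF cycle that drives the coat. Arf4 works with ARF1 in recruiting COPI and other coats at the Golgi. It was 68.44, 63.87, 64.60, 59.40 and 71.37 FPKM in Atf6+/+ and 63.88 to 75.72 with a median of 68.9 in Atf6-/-. The groups overlapped, with 2 Atf6-/- libraries above the highest control, and the change of 6.03% (interval -2.63 to 15.5) did not pass the test (exact permutation p = 0.160). On the log2 scale the change was 0.085, and 0.050 without Atf6+/+ replicate 4. Arfgap3 stimulates GTP hydrolysis on ARF1 and so promotes release of the coat, and it had the widest difference of the 10 genes. Its level was 15.76, 15.48, 11.48, 16.36 and 15.97 FPKM in Atf6+/+ and 17.88, 19.56, 21.68, 17.88, 13.23 and 16.45 FPKM in Atf6-/-.

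In 5 of the 6 Atf6-/- libraries Arfgap3 exceeded the highest control, while replicate 5 (13.23 FPKM) was below 4 of the 5 controls and Atf6+/+ replicate 3 (11.48 FPKM) was the lowest of all. The means were 15.0 ± 2.00 FPKM (SD, n = 5) and 17.8 ± 2.86 (SD, n = 6), a difference of 17.9% whose interval, -2.01% to 42.0%, includes 0 (log2 fold change 0.24, SE 0.123, exact permutation p = 0.132). Individual libraries carried much of this value. The log2 fold change was 0.32 without Atf6-/- replicate 5 (called) and 0.14 without Atf6+/+ replicate 3 (not called). Atf6+/+ replicate 3 also had the highest bone marrow score of the 11 libraries, 6.35 against 2.91 to 5.58 in the others. With that score as a covariate the log2 fold change of Arfgap3 was 0.093 and was not called. Since the score differed between the genotypes, its part and that of genotype cannot be told apart.

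**Figure D3:**
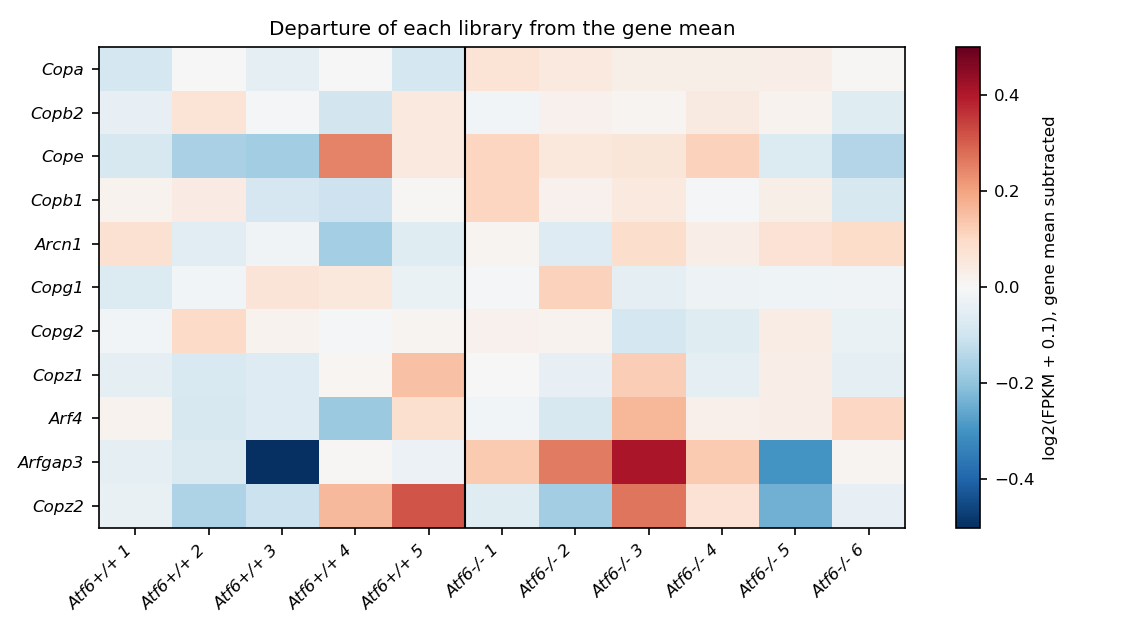
Departure of each library (columns, Atf6+/+ left of the line and Atf6-/- right of it) from the mean of each gene (rows: the 10 genes and the paralogue Copz2), as log2(FPKM + 0.1) with the gene mean subtracted. Most cells are pale, the dark cells are in the rows of Arfgap3, Copz2 and Cope, and the row of Copa is near or below its mean in Atf6+/+ and near or above it in Atf6-/-.

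The coat members held a mostly steady order. Except for Cope, their spread between libraries was below that of most genes that averaged 1 FPKM or more, which were not matched to them in level. By mean FPKM over 11 libraries, which is per transcript length, Cope (145) and Copg1 (127) led, followed by Copa (89.7), Arf4 (67.7), Copz1 (66.5), Arcn1 (46.9), Copb2 (44.0), Copb1 (24.3), Copg2 (17.9) and Arfgap3 (16.5). Most steps of this order held in each of the 11 libraries. The exceptions were Cope above Copg1 (10 of 11), Arf4 above Copz1 (8), Arcn1 above Copb2 (9) and Copg2 above Arfgap3 (8). Copg2 was above Arfgap3 in 5 of 5 Atf6+/+ libraries and in 3 of 6 Atf6-/- libraries. By group means, Arfgap3 (17.78) was above Copg2 (17.735) in Atf6-/-, and Copz1 (66.3) was above Arf4 (65.5) in Atf6+/+. The order of these 4 pairs thus changed in 1 to 3 libraries each, and their differences in level were not tested.

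**Figure D4:**
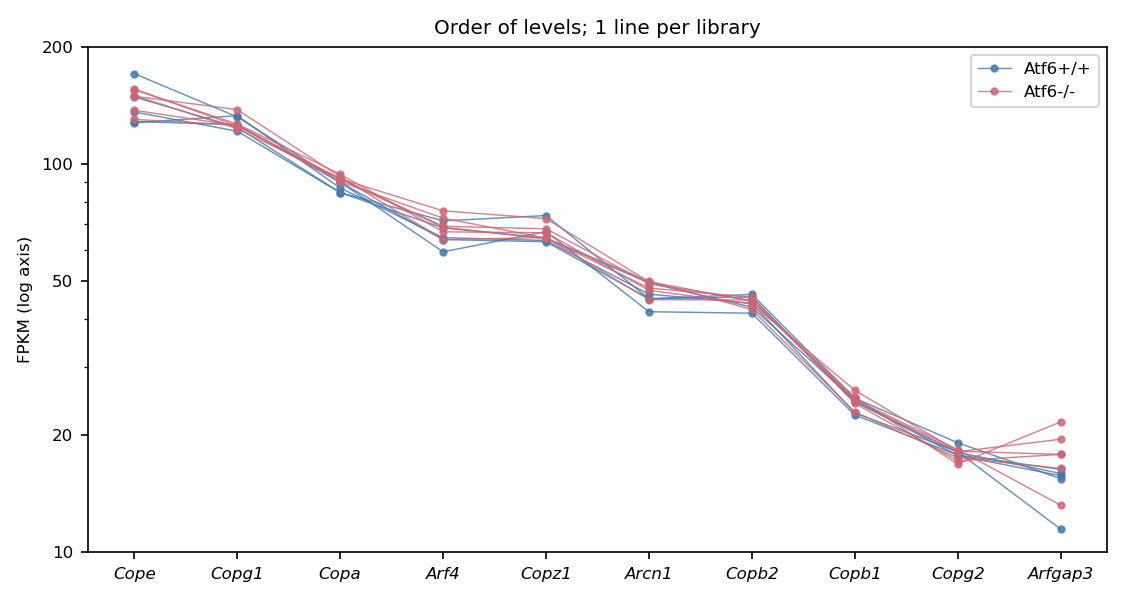
FPKM (log axis) of the 10 genes in order of their mean, with 1 line per library (Atf6+/+ blue, Atf6-/- red). The lines run close together from Cope near 145 FPKM down to Copg2 near 17.9 and spread at Arfgap3, where the libraries range from 11.48 to 21.68.

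The SD between libraries of a genotype, on the log2 scale, was 0.034 for Copa, and 0.118% of the 13611 genes that averaged 1 FPKM or more had a lower one. It was 0.047 for Copg2 (1.05% of genes lower), 0.051 for Copb2 (1.62%), 0.058 for Copg1 (3.17%) and 0.063 for Copb1 (4.89%), against a median of 0.14 over those genes. Since those genes span other levels, the part of expression level in these ranks was not tested. Arcn1, Copz1 and Arf4 were also below the median, at 0.074, 0.079 and 0.093. Cope, at 0.14, was near the median, and Arfgap3, at 0.23, was above it. The rise of Copa, 5.67%, exceeded the SD of its libraries in either genotype but not the range of its Atf6+/+ libraries. limma, which draws each gene's variance towards that of genes at the same level, gave it a larger p than the permutation test did.

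Coat complexes can be built with alternative γ and ζ subunits, and their balance was compared within libraries, where scaling between libraries has no part. RSEM divides reads that fit several transcripts among them, so values of close paralogues such as Copg1 and Copg2, or of the ARFs, are less certain than those of single genes. Copg1 made up 87.5% ± 0.544 (SD, n = 5) of the summed γ FPKM in Atf6+/+ and 87.8% ± 0.411 (SD, n = 6) in Atf6-/-. Copz1 made up 58.2% ± 1.91 (SD, n = 5) of the ζ FPKM in Atf6+/+ and 59.5% ± 2.64 (SD, n = 6) in Atf6-/-. Copz2, the second ζ subunit, was 47.8 ± 6.77 FPKM (SD, n = 5) in Atf6+/+ and 45.7 ± 5.95 (SD, n = 6) in Atf6-/- (log2 fold change -0.065, exact permutation p = 0.576), with a log2 SD within genotypes of 0.19.

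Of the 7 log2 ratios tested, none passed the test between the genotypes. The groups overlapped for each, and the adjusted p of the exact permutation test over the 7 was 0.452 for 6 of them and 0.693 for Copa to Cope. The ratio of Arfgap3 to Arfgap2, a second GTPase-activating protein of the Golgi, had the widest difference, 0.20 on the log2 scale (exact permutation p = 0.177). It was 0.12 without Atf6+/+ replicate 3 and 0.28 without Atf6-/- replicate 5, the latter with an exact permutation p of 0.0317 before adjustment. The ratio of Arf4 to Arf1 differed by 0.085, that of Arf4 to Arf5 by 0.099, that of Copz1 to Copz2 by 0.075, and those of Copg1 to Copg2 and of Copb1 to Copb2 by 0.037 each, all with the larger ratio in Atf6-/-. Leaving out 1 library in turn gave 0.027 to 0.11 for Copz1 to Copz2 (lowest without Atf6-/- replicate 5), 0.015 to 0.057 for Copg1 to Copg2 (lowest without Atf6+/+ replicate 2) and 0.017 to 0.057 for Copb1 to Copb2 (lowest without Atf6-/- replicate 1). Without Atf6+/+ replicate 4 the ratios of Arf4 to Arf1 and to Arf5 differed by 0.024 and 0.020. The ratio of Copa to Cope differed by 0.034, and by -0.022 without Atf6+/+ replicate 4.

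The wider machinery of COPI and the ARF cycle was examined with 33 further genes, of which Tmed6 and Tmed11 had no row, leaving 31 that were tested. Their means were higher in Atf6-/- for 19 (61.3%, against 45.3% of all genes tested) and lower for 12. The median log2 fold change was 0.035 (0.015 to 0.039 without 1 library, the lowest without Atf6-/- replicate 6, and 0.092 in TPM). Of the 31, 1 (3.23%) was called higher and 0 lower, against 4.48% and 5.37% of all genes tested. The called gene was Tmed10, a p24 family receptor that binds COPI and ARF1 and sorts cargo between ER and Golgi. Its highest level in Atf6+/+ was 74.47 FPKM (lowest 69.68) and its lowest in Atf6-/- was 75.68 (highest 82.99), so the groups did not overlap. The means of 72.0 ± 2.25 FPKM (SD, n = 5) and 79.3 ± 2.47 (SD, n = 6) gave a rise of 10.1% (interval 4.01 to 16.5), a log2 fold change of 0.14 (SE 0.038, limma p = 0.00304, adjusted p = 0.350, exact permutation p = 0.00433).

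Tmed10 passed the study's rule under each of the 9 other settings and without each of the 11 libraries, with log2 fold changes of 0.13 to 0.20, which includes 0.13 with the bone marrow score as a covariate. It was also the most abundant of the 9 p24 genes tested, of which 8 (88.9%) had a higher mean in Atf6-/-, against 45.3% of all genes tested. None of the other 8 was called.

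**Figure D5:**
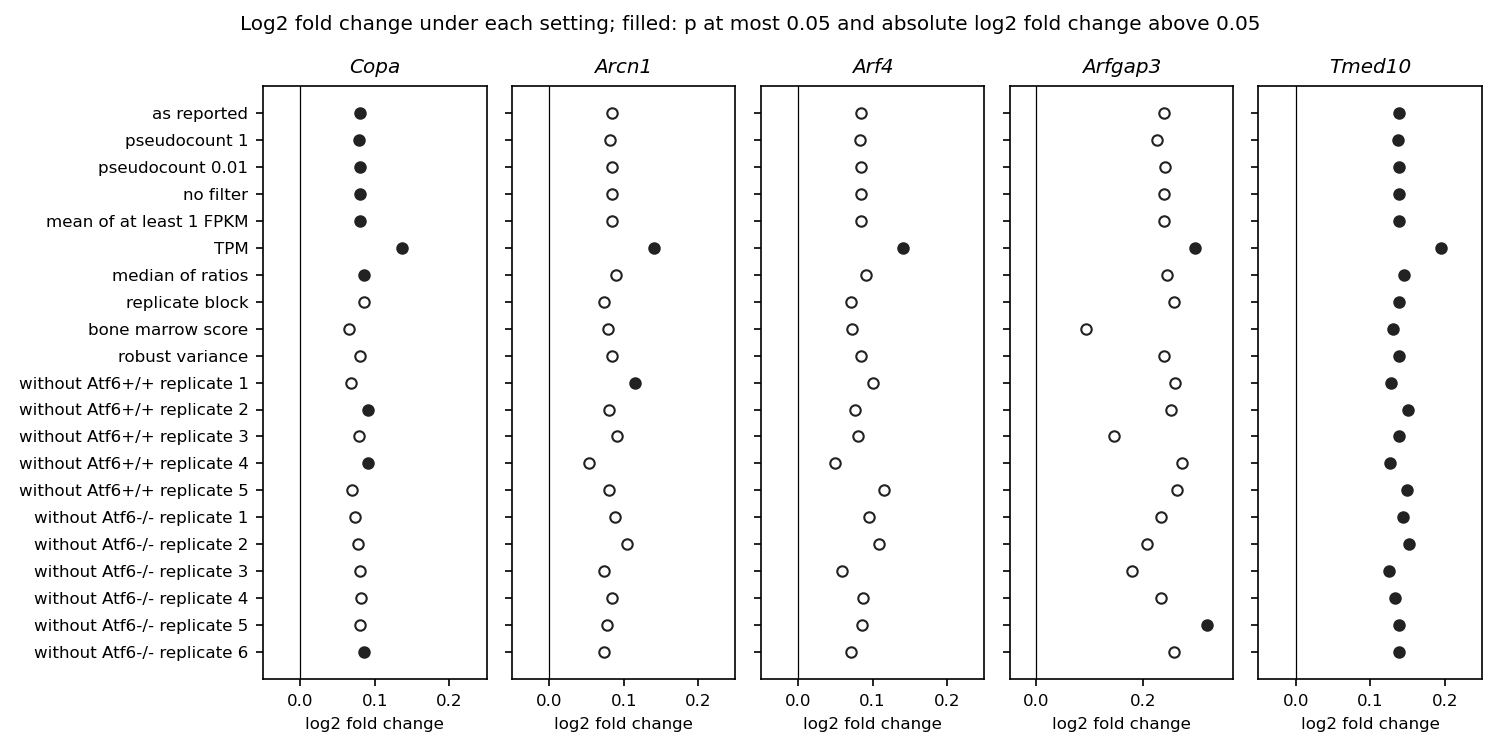
Log2 fold change (horizontal axis, a wider one for Arfgap3) of Copa, Arcn1, Arf4, Arfgap3 and Tmed10 under each setting and without each library (rows), with filled points where the gene was called by the study's rule. Tmed10 is filled in every row, Copa in the first row and in 9 others, and Arcn1, Arf4 and Arfgap3 in 2, 1 and 2 rows.

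Among the regulators of ARF, Gbf1, the exchange factor that loads ARF1 at the early Golgi, was the most abundant exchange factor at 40.0 ± 1.76 FPKM (SD, n = 5) in Atf6+/+ and 42.7 ± 1.94 (SD, n = 6) in Atf6-/-. In 5 of 6 Atf6-/- libraries it was above the highest control, at 37.16 to 41.64 FPKM in Atf6+/+ and 39.69 to 45.41 in Atf6-/-, and its change missed the limma threshold (6.77%, interval -0.215 to 14.2, limma p = 0.0566), while the exact permutation test gave p = 0.0368 without adjustment. Arfgap1, the more abundant of the other 2 GTPase-activating proteins by its mean over all libraries but not in Atf6-/-, was 25.2 ± 2.33 FPKM (SD, n = 5) and 23.3 ± 1.35 (SD, n = 6), with all 6 Atf6-/- libraries below the Atf6+/+ mean, and was not called (exact permutation p = 0.106). Arf1, the main ARF of COPI budding and the most abundant of 5 further ARF GTPases, had the same mean of 182 FPKM in both genotypes (interval of the change -6.13% to 6.51%).

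The remaining lists held no called gene. Of the 4 retrieval receptors, which return escaped ER proteins, the most abundant was Kdelr1, at 68.1 ± 6.86 FPKM (SD, n = 5) and 71.4 ± 6.21 (SD, n = 6, exact permutation p = 0.392). Of the 7 tether and SNARE genes that receive COPI vesicles at the ER, the most abundant was Use1, at 75.4 ± 7.48 FPKM (SD, n = 5) and 72.8 ± 5.38 (SD, n = 6, exact permutation p = 0.550).

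The genes of other vesicle coats were set beside those of COPI. Of 13 COPII genes, which build the outward coat from ER to Golgi, 9 were higher and 4 lower in Atf6-/-, where 45.3% of all genes tested were higher. Their median log2 fold change was 0.085, and 3 were called higher, against 4.48% of all genes tested. These 3, named after their values were seen, were the inner coat subunits Sec23b (log2 fold change 0.16, exact permutation p = 0.00216), Sec24c (0.15, exact permutation p = 0.0108) and Sec24d (0.29, exact permutation p = 0.0130). Of 11 genes of clathrin and its Golgi adaptor AP-1, 5 were higher and 6 lower, and the median was -0.034. Of these 11, 0 were called in either direction, against 9.85% of all genes tested. The difference between the coats was not tested.

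The genes whose profile over the 11 libraries lay nearest to the mean profile of the 8 coat members, by the mean absolute difference on the log2 scale among 13601 other genes that averaged 1 FPKM or more, were Sf3b2 (0.020), Retreg2 (0.022) and Eftud2 (0.023). Sf3b2 and Eftud2 belong to the splicing machinery, and Retreg2 is an ER membrane protein. Measured against the mean of the other 7, Copa (0.034) was the nearest of the coat members themselves and Cope (0.110) was the farthest, while Arf4 lay at 0.077 and Arfgap3 at 0.163, against a median of 0.110 over all genes. Around its mean over all libraries, the mean profile itself moved only between -0.039 and 0.010 in Atf6+/+ libraries and between -0.035 and 0.038 in Atf6-/- libraries. Atf6-/- replicate 6 (-0.035) set that low end, and the next lowest, Atf6-/- replicate 4 (0.0109), was above the highest Atf6+/+ library (0.0102). Because the profile moved little, a gene that varied little between libraries also lies near it by this measure. Copa had the lowest and Cope the highest SD of the coat members.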

How the data were processed

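Whole cochleae, 5 from Atf6+/+ and 6 from Atf6-/- mice, were measured by stranded mRNA sequencing, 1 library per cochlea. According to the study's methods and the submitters' processing notes, the authors aligned reads to GRCm39 with HISAT2 2.0.4, derived FPKM values with RSEM (version 1.2.12 in the notes) and used DESeq2 1.4.5 for their own comparison. The deposited FPKM values have no common sum, ranging from 474616 to 537926 per library in Atf6+/+ and from 462005 to 502419 in Atf6-/-. The methods state a nominal number of reads per sample, but the tables hold no read counts, so the actual depth of each library and the counting error of a value are not known here.

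The 2 tables were joined by NCBI gene identifier. Those that averaged 0.1 FPKM or more, 16169 of 18667, were tested with limma 3.58.1 (R 4.3.3) on log2(FPKM + 0.1), with genotype as the only term, a mean-variance trend, two-sided tests and Benjamini-Hochberg adjustment over all of them. Fold changes on this scale understate those of low genes. Single values and within-library ratios were compared by exact two-sided permutation over 462 assignments of the libraries. Percent changes and 95% intervals were converted from the limma fit. In simulated data with 200 of 16169 genes changed in this comparison, the study's rule recovered 38 at a log2 change of 0.1 and 131 at 0.25, and an adjusted p under 0.05 recovered 0 and 11.

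The genes named are all 10 members, those of the wider COPI and ARF lists with a p of at most 0.05 and each wider list's most abundant gene, the partners in the 7 ratios, Atf6, the COPII genes called (named after their values were seen) and the 3 genes nearest to the coat's mean profile. 1 gene of the wider lists was left out and is not reported here. The members and lists were chosen with earlier results of these data known. Of 13 marker lists written for cochlear and neighbouring cell types, none passed an exact test adjusted over the 13, and the lowest adjusted p (permutation) was 0.113. Alternatives were pseudocounts of 1 and 0.01, no expression filter, a mean of at least 1 FPKM, scaling to TPM or by the median of ratios, robust variance, a bone marrow score, the replicate number as a block and leaving out each library. Promoter sequences are from RefSeq (GRCm38.p6). No coordinates were converted between builds.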

Additional observations from a re-analysis of the deposited data

Results flagged for a closer look

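In 3 of 36 groups of libraries checked, 1 library stood far from the others of its genotype by Dixon's criterion, and chance alone marks about 1 group in 20. Copg1 was 138 FPKM in Atf6-/- replicate 2, where the next highest Atf6-/- library was at 126.71. Arfgap3 was 11.48 FPKM in Atf6+/+ replicate 3, where the next lowest control was at 15.48. The log2 ratio of Arf4 to Arf5 was -1.16 in Atf6+/+ replicate 4, where the next lowest control was at -0.80. These readings were kept in every value above unless a library is said to be left out.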

How the results depend on the processing

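The number of the 10 genes called higher was 4 under TPM and 0 with a replicate block, with the bone marrow score or with robust variance. It was 0 to 1 when a library was left out, where the 1 gene was Arcn1 without Atf6+/+ replicate 1, Arfgap3 without Atf6-/- replicate 5 and Copa in the 3 other cases. No member was called lower or had a limma adjusted p under 0.05 under any setting or without any library. The median log2 fold change of the 10 genes stayed between 0.023 and 0.10. For the 31 wider genes, the number called higher was 2 with no filter, 5 under TPM, 2 with the bone marrow score and 1 to 3 without a library, and 1 was called lower with the bone marrow score. Over all genes, the rule called 724 higher and 868 lower, but 1389 and 439 under TPM, 420 and 658 with the replicate block, and 324 and 530 with the bone marrow score. Signs turned for some genes with a small change. With the bone marrow score, the log2 fold change was -0.016 for Copb2, -0.047 for Copb1, 0.035 for Copg1 and -0.020 for Copz1. Under TPM it was 0.056 for Copg1 and 0.019 for Copg2, and for Copg1 it was 0.0057 with median-of-ratios scaling and 0.0027 with the replicate block. Without 1 library it ranged from -0.014 to 0.026 for Copb2, from -0.024 to 0.015 for Copg1, from -0.013 to 0.049 for Copz1, and from -0.022 to 0.080 for the ratio of Copa to Cope. None of these was called, and the cause was not tested. The replicate numbers do not pair the libraries: the correlation of same-numbered libraries was between -0.21 and 0.12, and 1 of 5 Atf6+/+ libraries matched its own number best. With the replicate block Copa had a log2 fold change of 0.086 and was not called, and Atf6-/- replicate 6, which shares its number with no control, added nothing to the estimate. The tables hold no read counts, so no setting speaks to counting error.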
